A study of Mus musculus with 8 samples.

Results

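The genes described here are the 2 corticosteroid receptor genes, an enzyme gene that sets how much active hormone reaches them, and 7 genes known to be induced through them. They were taken by symbol, and all 10 were found among the 56691 genes of the deposited table. Corticosteroids such as corticosterone enter cells and bind the glucocorticoid receptor (encoded by Nr3c1) or the mineralocorticoid receptor (Nr3c2), which then move to the nucleus and act on DNA. In the brain the mineralocorticoid receptor binds corticosterone with the higher affinity, and the glucocorticoid receptor is filled mainly when hormone is high, as under stress. Target genes such as Fkbp5, Tsc22d3, Sgk1 and Per1 are widely used as a readout of that action.

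Messages on ribosomes were sequenced from the mouse ventral tegmental area, or VTA, where many midbrain dopamine neurons lie. There were 4 Ogt knockdown libraries from Ogt flox+/Y mice (replicates 2, 3, 4 and 5) and 4 control libraries from Ogt flox-/Y mice (replicates 3, 4, 5 and 6), all male by genotype. Mice of both genotypes had AAV-TH-Cre (Cre under the promoter of tyrosine hydroxylase) and AAV-Flex-NBL10 injected into the VTA, and ribosomes were pulled down through the HA tag of NBL10, which is made where Cre acts. Ogt encodes the enzyme that attaches O-GlcNAc to proteins. The labels give no age, no stress and no hormone treatment, and they do not say whether each replicate is another mouse. The p-values therefore rest on the spread between these libraries alone, which may be technical. In ribosome-bound RNA from tissue, fewer cells of a type and less RNA per cell cannot be told apart.

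Libraries held 49802305 to 147747191 counted reads, so that 3 reads, used as the floor of detection, correspond to 0.0203 to 0.0602 CPM (counts scaled to library size, by the total for this floor and by the TMM-adjusted total for gene levels). The floor covers counting error only. Every member was far above it in every library, the smallest count being 94 reads of Angptl4 in control replicate 4. Ogt itself was at 74.4, 47.2, 41.7 and 36.0 CPM in the knockdown libraries, against 159.4, 117.9, 118.3 and 108.3 CPM in the control libraries, and fell 2.53-fold (edgeR quasi-likelihood adjusted p = 0.00243). Of the dopamine neuron label's defining gene, Th, 180.1 to 282.4 CPM were found in knockdown libraries and 435.0 to 1240.8 CPM in control libraries. Of 15 dopamine neuron markers 12 were called lower and 1 higher. The 1 higher was Aldh1a1, with a mean of 1664.1 CPM in knockdown libraries and 722.7 CPM in control libraries. The sums of all 15 markers overlapped, at 1821.3 to 2465.1 CPM in knockdown libraries and 2214.4 to 3978.9 CPM in control libraries. Aldh1a1 alone made up 1323.0 to 1951.1 CPM of the knockdown sums and 498.6 to 979.5 CPM of the control sums. The overlap thus rests on a gene that moved against the 12 markers called lower. Other cells were represented as well. Of 12 astrocyte markers 4 were called higher and none lower, with a summed level of 8448.8 to 12764.4 CPM in knockdown libraries and 765.6 to 4268.5 CPM in control libraries. Of 14 microglia and macrophage markers 11 were called higher (69.5 to 197.7 CPM in knockdown libraries, 33.4 to 57.5 CPM in control libraries), and of 12 oligodendrocyte markers 6 were (1973.0 to 4489.7 CPM in knockdown libraries, 1279.6 to 1896.1 CPM in control libraries). All 10 general neuron markers were called lower, summing to 2372.8 to 3010.1 CPM in knockdown libraries and 5360.2 to 7095.9 CPM in control libraries. None of the markers was at 0 in any library. Control replicate 3 stood apart: 12 endothelial markers summed to 1356.8 CPM there, against 93.7 to 132.5 CPM in knockdown libraries and 65.6 to 67.9 CPM in the other control libraries.

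**Figure D1:**
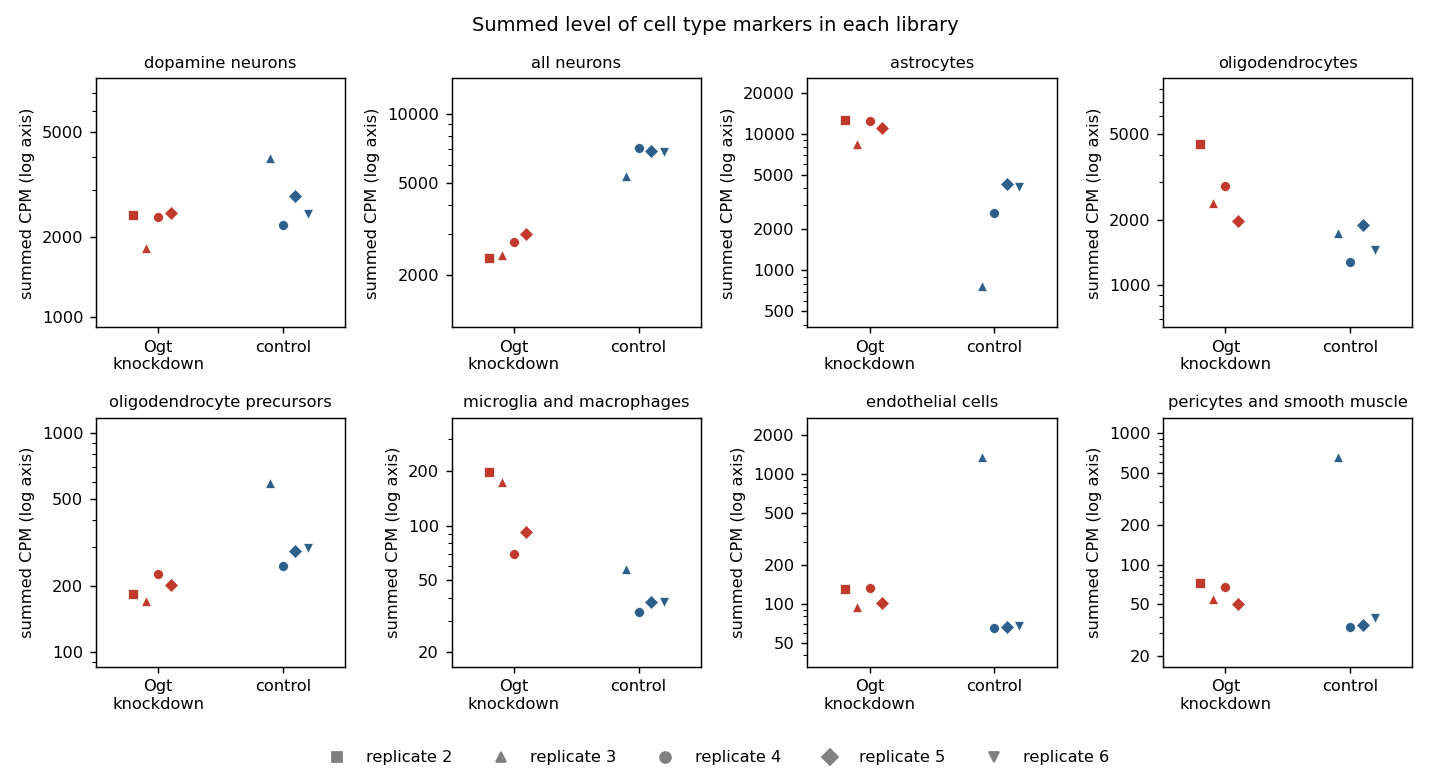
Summed CPM (log axis) of the markers of 8 cell types in each library, Ogt knockdown left and control right, with 1 symbol per replicate number. Control replicate 3 is the highest control library for endothelial (1356.8 CPM) and pericyte and smooth muscle markers (657.6 CPM) and the lowest for astrocyte markers (765.6 CPM).

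Of the 10 members, 3 rose and none fell at an adjusted p under 0.05, while over all 19912 genes tested 28.5% were called, 13.4% higher and 15.1% lower. All 10 members passed the filter on low counts. The members that rose were Angptl4, Ddit4 and the receptor gene Nr3c1, and the count of members called is close to the share of genes called overall. Without control replicate 4, Angptl4 was the 1 member still called. At an unadjusted p under 0.05, Per1 and Tsc22d3 lay below control as well. The groups did not overlap for 4 members, 3 higher and 1 lower, where 35.1% of all genes tested did not overlap. The median log2 fold change of the members was 0.13, against 0.00 for all genes tested.

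**Figure D2:**
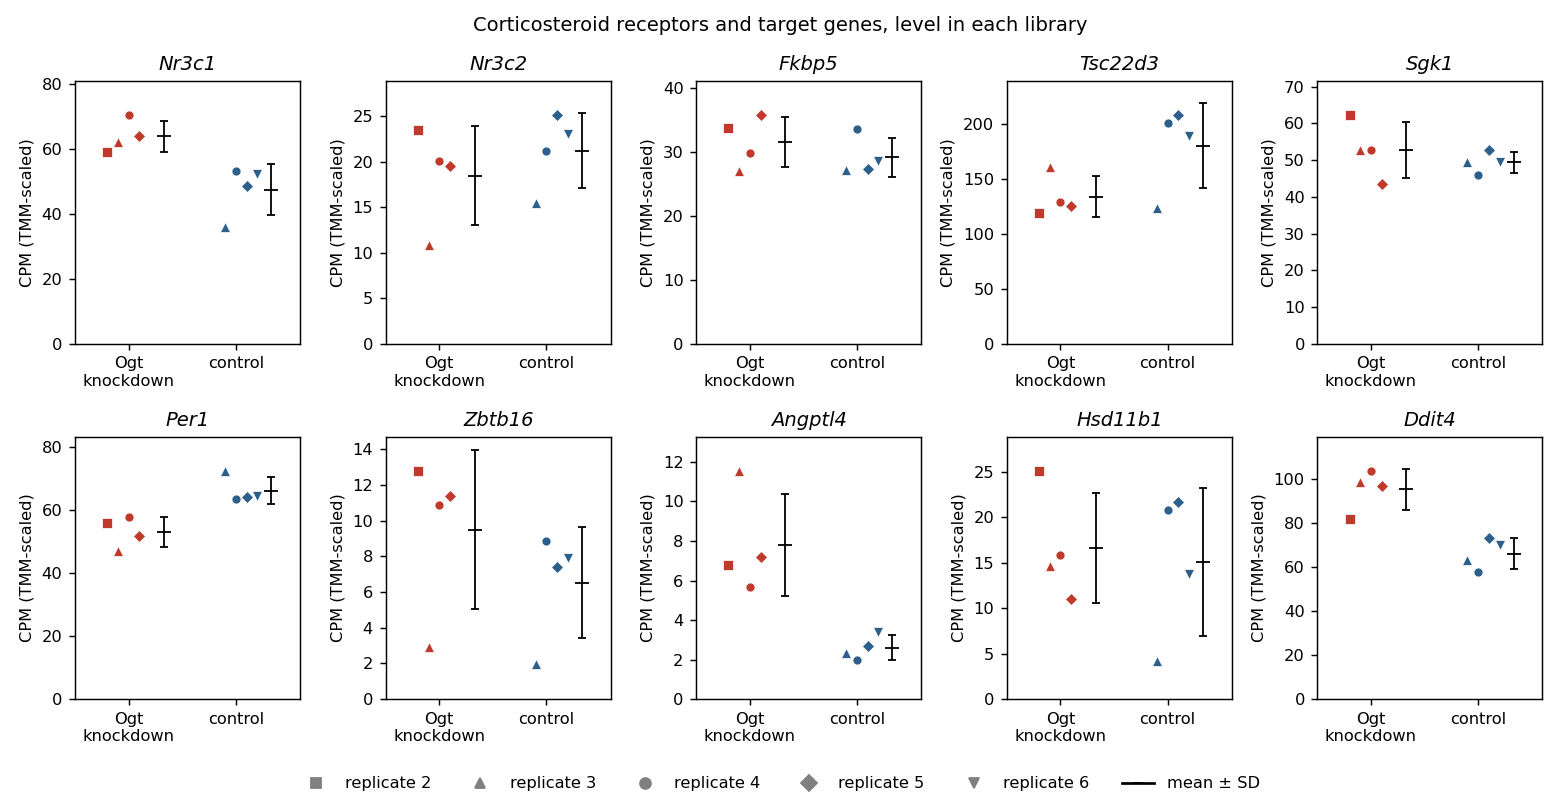
TMM-scaled CPM of the 10 members in each library, Ogt knockdown left and control right, with 1 symbol per replicate number and the mean ± SD (n = 4 each) beside the points. Angptl4, Ddit4 and Nr3c1 are higher in all 4 knockdown libraries than in any control library, Per1 is lower in all 4, and the libraries numbered 3 (triangles) lie apart from their group for Tsc22d3, Zbtb16 and Nr3c2.

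Windows of 300 bases around annotated transcription starts (250 before and 50 after, RefSeq on GRCm38.p6) were at hand for 7 of the 10 members, 15 windows in all. The hormone response motif, its half-site or the clock motif was found in 6 windows of 4 members, and for each of these members the window with most matches is printed. Both strands were searched for the glucocorticoid response element (GNACA and TGTNC with any 3 bases between them), its half-site AGAACA and the E-box CACGTG, which the clock proteins bind. Capitals mark matches, and the half-sites inside the full element count with it.
Sgk1, chr10:21993640-21993939, plus strand: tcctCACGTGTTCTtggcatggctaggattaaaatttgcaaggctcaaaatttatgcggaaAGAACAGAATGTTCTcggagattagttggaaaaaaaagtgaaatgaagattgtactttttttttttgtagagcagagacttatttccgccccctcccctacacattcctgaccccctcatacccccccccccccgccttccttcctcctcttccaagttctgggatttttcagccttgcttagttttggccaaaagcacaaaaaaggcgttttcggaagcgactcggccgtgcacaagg
Tsc22d3, chrX:140600473-140600772, minus strand: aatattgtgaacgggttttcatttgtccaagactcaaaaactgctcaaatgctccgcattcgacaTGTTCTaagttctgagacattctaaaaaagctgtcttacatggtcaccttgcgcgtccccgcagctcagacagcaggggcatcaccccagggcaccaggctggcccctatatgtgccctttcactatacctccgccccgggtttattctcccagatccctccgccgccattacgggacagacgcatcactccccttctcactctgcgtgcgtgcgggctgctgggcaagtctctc
Per1, chr11:69098699-69098998, plus strand: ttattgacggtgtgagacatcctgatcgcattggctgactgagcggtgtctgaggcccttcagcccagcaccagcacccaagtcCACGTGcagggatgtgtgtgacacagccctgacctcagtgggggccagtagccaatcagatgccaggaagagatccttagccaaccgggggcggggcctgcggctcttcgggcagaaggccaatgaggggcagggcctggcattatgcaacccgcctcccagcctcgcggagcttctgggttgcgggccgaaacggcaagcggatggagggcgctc
Fkbp5, chr17:28486100-28486399, minus strand: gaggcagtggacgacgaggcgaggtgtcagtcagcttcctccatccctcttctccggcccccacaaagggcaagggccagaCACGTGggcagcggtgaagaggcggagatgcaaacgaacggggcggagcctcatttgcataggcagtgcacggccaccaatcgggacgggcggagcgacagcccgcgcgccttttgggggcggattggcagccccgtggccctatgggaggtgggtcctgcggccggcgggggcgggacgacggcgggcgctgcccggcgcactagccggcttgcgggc
The full element was found in 1 of the 15 windows, the fifth of 6 for Sgk1, and in 0.475% of all 32851 windows of the same length. The half-site was found in 4 windows of 2 members (Sgk1 and Tsc22d3) and in 19% of all windows. In the Sgk1 window the E-box and a half-site share bases. The E-box was found in 3 windows, 1 each of Sgk1, Per1 and Fkbp5, and in 7.15% of all windows. The single windows of Nr3c2, Hsd11b1 and Ddit4 held none of these letters. A match is a description of the sequence, and these windows leave out distant elements.

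The glucocorticoid receptor message rose. Nr3c1 (ENSMUSG00000024431.16, chromosome 18, 39543598 to 39652474, minus strand) had 59.1, 62.1, 70.3 and 63.9 CPM in knockdown replicates 2, 3, 4 and 5, against 35.9, 53.0, 48.6 and 52.1 CPM in control replicates 3, 4, 5 and 6. Every knockdown library was above every control library, and control replicate 3 was the lowest of all 8. The mean was 63.8 ± 4.75 CPM in knockdown libraries and 47.4 ± 7.91 CPM in control libraries (SD, n = 4 each). This is 1.35-fold higher (log2 fold change 0.43, SE 0.14, edgeR adjusted p = 0.0476). This call is narrow. It was lost when knockdown replicate 2, 3, 4 or 5 or control replicate 4, 5 or 6 was left out (adjusted p = 0.0814, 0.0543, 0.162, 0.121, 0.0823, 0.0983 and 0.0768), and kept without control replicate 3 (0.0458).

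The mineralocorticoid receptor message did not pass the test. Nr3c2 (ENSMUSG00000031618.14, chromosome 8, 77626070 to 77971641, plus strand) had 23.5, 10.8, 20.1 and 19.6 CPM in knockdown replicates 2, 3, 4 and 5, against 15.5, 21.2, 25.1 and 23.1 CPM in control replicates 3, 4, 5 and 6. The groups overlapped, and the library numbered 3 was the lowest of each. Its log2 fold change was -0.20 (SE 0.24, 95% interval -0.73 to 0.34, edgeR adjusted p = 0.577), an interval that does not exclude a fall of the size of the rise in Nr3c1. An antisense gene, Gm10649, overlaps 3.82% of the exon length of Nr3c2. Counting did not use strand, so reads in that overlap could not be assigned by strand to 1 of the 2 genes.

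Between the receptors, levels can be compared per exon length. Nr3c1 was at 8.31 ± 0.618 RPKM (CPM per kilobase of exon) in knockdown libraries and 6.17 ± 1.03 RPKM in control libraries, and Nr3c2 at 2.86 ± 0.833 RPKM in knockdown libraries and 3.28 ± 0.640 RPKM in control libraries (SD, n = 4 each). The ratio of Nr3c2 to Nr3c1 per length was 0.471, 0.207, 0.340 and 0.364 in knockdown replicates 2, 3, 4 and 5, against 0.513, 0.475, 0.614 and 0.525 in control replicates 3, 4, 5 and 6. All knockdown ratios were below all control ratios, though knockdown replicate 2 and control replicate 4 nearly touch. The ratio is given as a description with no test.

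**Figure D3:**
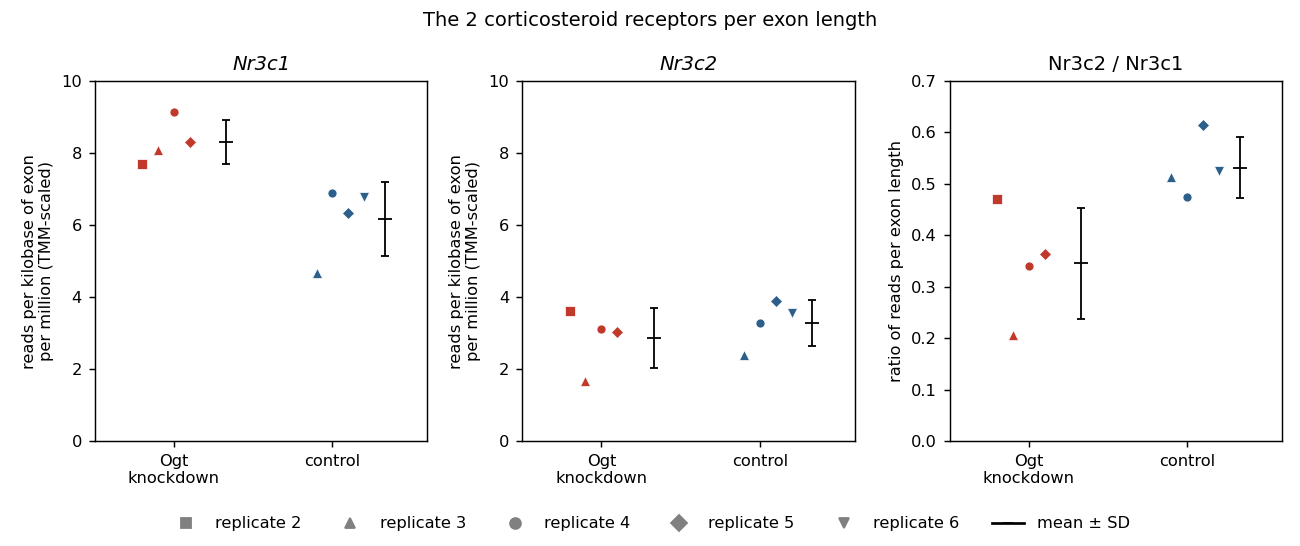
RPKM (CPM per kilobase of exon) of Nr3c1 and Nr3c2 (left and middle) and their ratio per exon length (right) in each library, Ogt knockdown left and control right, with mean ± SD (n = 4 each). Nr3c1 lies above Nr3c2 in all libraries, and the ratio averages 0.346 ± 0.109 in knockdown libraries and 0.532 ± 0.0589 in control libraries.

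Hsd11b1, the enzyme that regenerates active corticosterone from its inert keto form, differed more within groups than between them. It had 25.1, 14.6, 15.8 and 10.97 CPM in knockdown replicates 2, 3, 4 and 5, against 4.14, 20.8, 21.7 and 13.7 CPM in control replicates 3, 4, 5 and 6 (ENSMUSG00000016194.15, chromosome 1, 192903942 to 192946383, minus strand). Control replicate 3 was far below the other control libraries. The log2 fold change was 0.14 (SE 0.45, 95% interval -0.88 to 1.16, edgeR adjusted p = 0.849), and its sign turned without control replicate 3 (-0.18) or knockdown replicate 2 (-0.15).

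Other enzymes, carriers and pumps for corticosteroids were sparse. Of 11 genes listed, 6 were tested, and 1 of these rose and none fell (16.7% called, against 28.5% of all genes, median log2 fold change -0.25). Control replicate 3 was above all 7 other libraries for 4 of the 6 (H6pd, Abcb1a, Cyp11a1 and Srd5a1), against 25.2% of all genes. The gene that rose was Abcb1b, a P-glycoprotein pump known to export corticosteroids, at 5.56 ± 0.958 CPM in knockdown libraries and 2.12 ± 0.714 CPM in control libraries (SD, n = 4 each, 2.63-fold, edgeR adjusted p = 0.00549). Its close paralog Abcb1a had 5.57, 3.55, 5.41 and 2.77 CPM in knockdown replicates 2, 3, 4 and 5, against 96.7, 1.75, 1.56 and 2.27 CPM in control replicates 3, 4, 5 and 6, and did not pass (log2 fold change -2.56, SE 1.30, edgeR adjusted p = 0.175). Both values are uncertain as far as reads match the 2 pump genes alike. Without control replicate 3, 2 of the list were higher (18.05% of all genes), and without knockdown replicate 2, 1 was lower (11.61% of all genes). At an unadjusted p under 0.05, the steroid synthesis gene Cyp11a1 (log2 fold change -1.25) and the reductase gene Srd5a1 (-0.38) lay lower, and they were chosen after their values were seen. Hsd11b2, the enzyme that inactivates corticosterone, was not tested. It had 8, 0, 24 and 34 reads in knockdown replicates 2, 3, 4 and 5, against 0, 4, 0 and 11 reads in control replicates 3, 4, 5 and 6, where the floor is 3 reads in each.

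Among the target genes, Angptl4 rose the most. It encodes a secreted inhibitor of lipoprotein lipase that is induced by fasting, by corticosteroids and by fatty acids through PPAR receptors. Angptl4 (ENSMUSG00000002289.17, chromosome 17, 33992724 to 34000804, minus strand) had 6.80, 11.6, 5.68 and 7.18 CPM in knockdown replicates 2, 3, 4 and 5, against 2.36, 1.96, 2.68 and 3.42 CPM in control replicates 3, 4, 5 and 6. The lowest knockdown library was above the highest control library. The mean was 7.80 ± 2.58 CPM in knockdown libraries and 2.60 ± 0.616 CPM in control libraries (SD, n = 4 each). This is 2.99-fold higher (log2 fold change 1.58, SE 0.28, edgeR adjusted p = 0.00298). The call held under all 16 other settings, with log2 fold changes from 1.16 to 1.75.

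Ddit4 rose as well. It encodes REDD1, an inhibitor of the growth kinase complex mTORC1 that corticosteroids, low oxygen and energy stress induce. Ddit4 (ENSMUSG00000020108.5, chromosome 10, 59785491 to 59787656, minus strand) had 82.1, 99.0, 103.9 and 97.0 CPM in knockdown replicates 2, 3, 4 and 5, against 63.1, 57.7, 73.4 and 70.1 CPM in control replicates 3, 4, 5 and 6. The groups did not overlap, and knockdown replicate 2 was nearest to the control range. Ddit4 was 1.45-fold higher (log2 fold change 0.53, SE 0.13, edgeR adjusted p = 0.0113). Leaving out control replicate 4 took it out of the calls (adjusted p = 0.0548, with 0.0132 to 0.0471 when any other library was left out).

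Fkbp5 and Sgk1 did not pass the test. Fkbp5 encodes the co-chaperone FKBP51, which lowers the affinity of the receptor for hormone and is itself induced by it. Fkbp5 (ENSMUSG00000024222.18, chromosome 17, 28618068 to 28736501, minus strand) had 33.8, 27.0, 29.9 and 35.8 CPM in knockdown replicates 2, 3, 4 and 5, against 27.1, 33.6, 27.4 and 28.6 CPM in control replicates 3, 4, 5 and 6. The ranges of the groups were almost the same. Its log2 fold change was 0.12 (SE 0.14, 95% interval -0.19 to 0.43, edgeR adjusted p = 0.571). The value estimated for Ddit4, 0.53, lies outside this interval, but the 95% interval of Ddit4, 0.25 to 0.81, overlaps it. Overlap of intervals does not decide whether the 2 genes differ, and their difference was not tested.

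Sgk1, a kinase that acts on ion channels and transporters, carries the full response element printed above. Sgk1 (ENSMUSG00000019970.16, chromosome 10, 21758083 to 21875802, plus strand) had 62.2, 52.7, 52.9 and 43.6 CPM in knockdown replicates 2, 3, 4 and 5, against 49.4, 45.9, 52.8 and 49.5 CPM in control replicates 3, 4, 5 and 6. Knockdown libraries held both the highest and the lowest value. The log2 fold change was 0.10 (SE 0.13, 95% interval -0.19 to 0.39, edgeR adjusted p = 0.615).

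Tsc22d3 and Per1 lay lower in most knockdown libraries without passing the threshold. Tsc22d3 encodes GILZ, a leucine zipper protein through which corticosteroids restrain inflammatory signalling. Tsc22d3 (ENSMUSG00000031431.14, chromosome X, 139440277 to 139501408, minus strand) had 119.2, 161.2, 129.2 and 125.4 CPM in knockdown replicates 2, 3, 4 and 5, against 123.7, 200.7, 208.1 and 189.0 CPM in control replicates 3, 4, 5 and 6. The other 3 control libraries were all above the knockdown range, while control replicate 3 lay inside it. The log2 fold change was -0.43 (SE 0.18, edgeR adjusted p = 0.0972). Tsc22d3 passed the threshold without control replicate 3 (log2 fold change -0.58, adjusted p = 0.00666) and without knockdown replicate 3 (-0.53, adjusted p = 0.0494), and not when any of the other 6 libraries was left out (up to 0.224).

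Per1, a repressor in the circadian feedback loop that corticosteroids also induce directly, had 55.9, 47.1, 57.8 and 51.8 CPM in knockdown replicates 2, 3, 4 and 5, against 72.5, 63.6, 64.1 and 64.5 CPM in control replicates 3, 4, 5 and 6 (ENSMUSG00000020893.18, chromosome 11, 68986043 to 69000786, plus strand). Every knockdown library was below every control library, and control replicate 3 was well above the other control libraries. The log2 fold change was -0.32 (SE 0.11, edgeR adjusted p = 0.0615). With DESeq2 the adjusted p was 0.0423, and over all other settings it ran from 0.0293 to 0.215.

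Zbtb16, a zinc finger transcription factor (PLZF) and a strongly hormone-inducible gene in many tissues, did not pass the test. It had 12.8, 2.91, 10.9 and 11.4 CPM in knockdown replicates 2, 3, 4 and 5, against 1.95, 8.87, 7.38 and 7.93 CPM in control replicates 3, 4, 5 and 6 (ENSMUSG00000066687.6, chromosome 9, 48565597 to 48747522, minus strand). The libraries numbered 3 were the lowest of each group, and the other knockdown libraries were all above the other control libraries. The log2 fold change was 0.54 (SE 0.52, 95% interval -0.61 to 1.70, edgeR adjusted p = 0.472).

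The libraries numbered 3 therefore bear on several members. Without both of them, 4 members were called higher and 2 lower, while 23.5% of all 20437 genes then tested were called higher and 23.3% lower. Zbtb16 joined Angptl4, Ddit4 and Nr3c1 among the higher ones (log2 fold change 0.54, edgeR adjusted p = 0.00655, and 0.0669 to 0.710 under the other settings). Tsc22d3 (-0.68, adjusted p = 2.47e-05, and up to 0.448 elsewhere) and Per1 (-0.22, adjusted p = 0.0466) were then lower. Fkbp5, Sgk1, Nr3c2 and Hsd11b1 stayed short of the threshold under all 16 other settings. Control replicate 3 was above all 7 other libraries for Per1 and below them for Nr3c1, Zbtb16 and Hsd11b1, where 25.2% of all genes were above and 24.7% below. Endothelial markers were high and astrocyte markers low in the same library, and their part in these values was not tested.

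**Figure D4:**
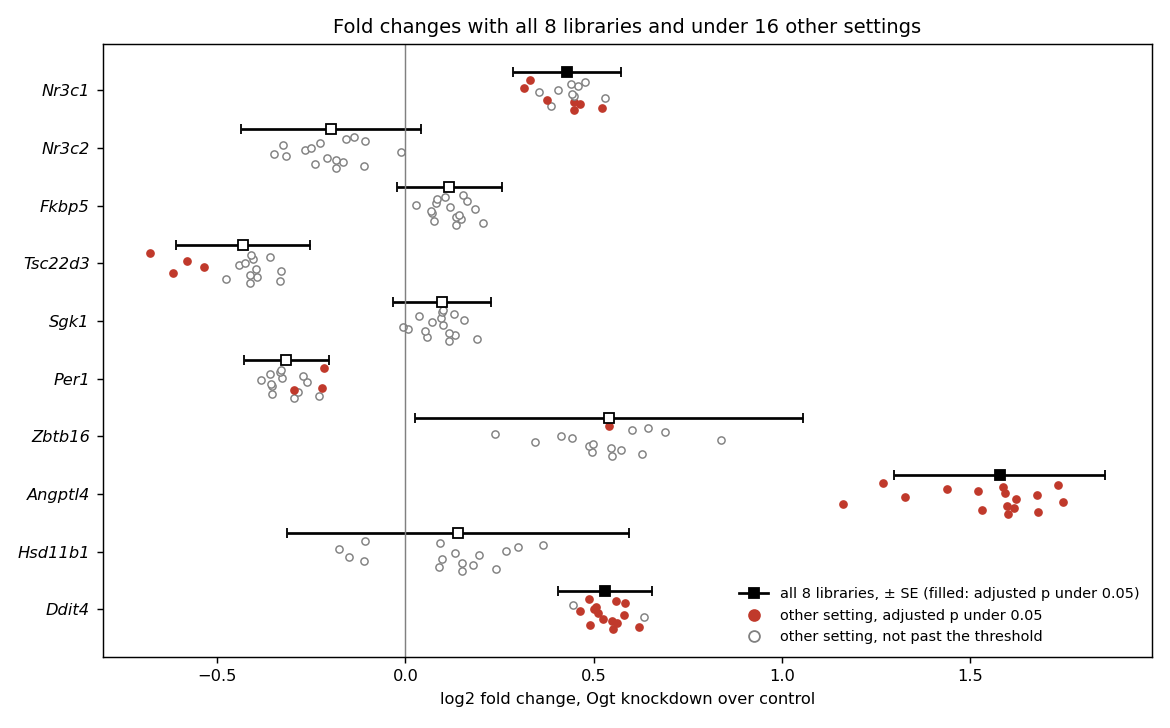
Log2 fold changes (Ogt knockdown over control, x axis) of the 10 members. Black squares with SE bars stand for the fit on all 8 libraries and circles for the 16 other settings, both filled where the adjusted p was under 0.05. Angptl4 is filled throughout, at 1.16 to 1.75, Ddit4 in 14 of 16 and Nr3c1 in 7 of 16, while Tsc22d3 lies below 0 throughout and is filled in 4.

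Per exon length, Ddit4 and Tsc22d3 were the members with most reads in both groups. In knockdown libraries the order was Ddit4 (54.4 ± 5.35 RPKM), Tsc22d3 (30.8 ± 4.32), Sgk1, Per1, Nr3c1, Hsd11b1, Fkbp5, Nr3c2, Angptl4 and Zbtb16 (1.80 ± 0.844 RPKM, SD, n = 4). In control libraries it was Tsc22d3 (41.6 ± 8.89 RPKM), Ddit4 (37.7 ± 4.01), Per1, Sgk1, Nr3c1, Hsd11b1, Nr3c2, Fkbp5, Zbtb16 and Angptl4 (0.735 ± 0.174 RPKM, SD, n = 4). Neighbours in the knockdown order whose ranges did not overlap were Ddit4 and Tsc22d3, Tsc22d3 and Sgk1, and Nr3c1 and Hsd11b1. In the control order they were Ddit4 and Per1, Per1 and Sgk1, Sgk1 and Nr3c1, and Fkbp5 and Zbtb16. Angptl4 was next to last in knockdown libraries, where its range overlapped that of Zbtb16, and last in control libraries.

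The genes whose profile over the 8 libraries was nearest were found for the receptors and Fkbp5, by the root-mean-square difference of centred log2 CPM. Nearest to Nr3c1 were Gmfb (0.0581) and Kpna4 (0.0665), to Nr3c2 Mars2 (0.0815) and Zfp397 (0.0961), and to Fkbp5 Usp3 (0.0680) and Khdc4 (0.0750). The members themselves spanned 0.97, 1.21 and 0.40 log2 units over the libraries.

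Chaperones that hold the receptors ready for hormone, and the cofactors they recruit on DNA, moved in both directions. Of 18 tested, 5 fell and 3 rose (44.4% called, against 28.5% of all genes), with a median log2 fold change of -0.05. The 5 that fell were Hsp90aa1, Hsp90ab1, Stip1, Fkbp4 and Ppid. Ptges3 (p23), which stabilises the complex of receptor and HSP90, averaged 235.1 ± 66.8 CPM in knockdown libraries and 183.2 ± 13.8 CPM in control libraries (SD, n = 4 each) and did not pass (log2 fold change 0.36, SE 0.18, edgeR adjusted p = 0.168). The ubiquitin ligase gene Stub1 did not pass either (0.18, SE 0.14). Hsp90aa1 averaged 827.5 ± 104.2 CPM in knockdown libraries and 1416.4 ± 88.2 CPM in control libraries (SD, n = 4 each, 1.71-fold, edgeR adjusted p = 0.0029). Hsp90ab1, the constitutive HSP90, fell 1.65-fold, the HSP70-HSP90 adaptor Stip1 1.603-fold, and the immunophilins Fkbp4 (FKBP52, the counterpart of FKBP51) and Ppid 1.64-fold and 1.55-fold. All 5 stayed past the threshold when any single library was left out. Control replicate 3 had the highest level of each of the 5. The general neuron markers, 10 of 10 of them lower, moved the same way between the groups. In control replicate 3, though, their sum was the lowest of the control libraries (5360.2 CPM, others 6821.3 to 7095.9). Snap25 made up much of that gap, at 1741.7 CPM there and 2897.6 to 3157.7 CPM in the other control libraries. Of the 10 neuron markers, 2 (Slc17a6 and Tubb3) were above all 7 other libraries there and 0 below. Of 15 dopamine neuron markers, 12 were above all 7 other libraries in control replicate 3 and 2 below, against 25.2% and 24.7% of all genes. The part of these cells in the falls was not tested.

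The 3 that rose were Bag1, a co-chaperone of HSP70 (1.66-fold), the acetyltransferase Ep300 (1.38-fold) and the Mediator subunit Med1 (1.34-fold). Bag1 missed the threshold when control replicate 6 was left out (adjusted p = 0.0719). That of Ep300 was lost without knockdown replicate 2 or 4 or control replicate 4 or 5 (0.0549 to 0.0654), and that of Med1 without any library but knockdown replicate 3 or control replicate 3 (0.0752 to 0.0992). The p160 coactivators Ncoa1, Ncoa2 and Ncoa3 and the corepressor Ncor1 did not pass.

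Other genes known to be induced by corticosteroids split. Of 30 tested, 12 rose, 2 fell and 16 did not pass (46.7% called, against 28.5% of all genes, of which 13.4% were higher and 15.1% lower), with a median log2 fold change of 0.20. Cebpd, a transcription factor that inflammation induces too, averaged 95.6 ± 53.8 CPM in knockdown libraries and 12.3 ± 6.90 CPM in control libraries (SD, n = 4 each, 7.72-fold, edgeR adjusted p = 0.00308). Cdkn1a, the cell cycle inhibitor p21, rose 2.15-fold and Mertk, a phagocytosis receptor of astrocytes and macrophages, 2.14-fold. The others that rose were Il1r2, Mt1, Mt2, Hif3a, Cebpb, Plin4, Pdk4, Klf15 and Mfsd2a. The 2 that fell were Arhgef3, a guanine nucleotide exchange factor (1.90-fold), and Irs2, an adaptor of the insulin receptor (1.501-fold), which missed the threshold when control replicate 6 was left out (adjusted p = 0.0539).

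Several standard hormone targets in the same list did not pass, among them Klf9 (log2 fold change 0.00, SE 0.18), Dusp1 (-0.32, SE 0.19), Nfkbia (0.55, SE 0.38), Per2 (-0.31, SE 0.28) and Errfi1 (-0.24, SE 0.11), chosen after their values were seen. Control replicate 3 was above all other libraries for 7 of the 30 (Klf4, Slc2a1, Map3k6, Sult1a1, Arrdc2, Galnt15 and Dusp1). At 23.3% this is near the 25.2% of all genes. It was below all of them for 12, or 40%, against 24.7% of all genes. Astrocyte, microglia and endothelial marker sums moved with these groups and libraries as given above, and their part was not tested. Without both libraries numbered 3, 17 of the list were higher and 5 lower, while 23.5% of all genes then tested were higher and 23.3% lower.

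**Figure D5:**
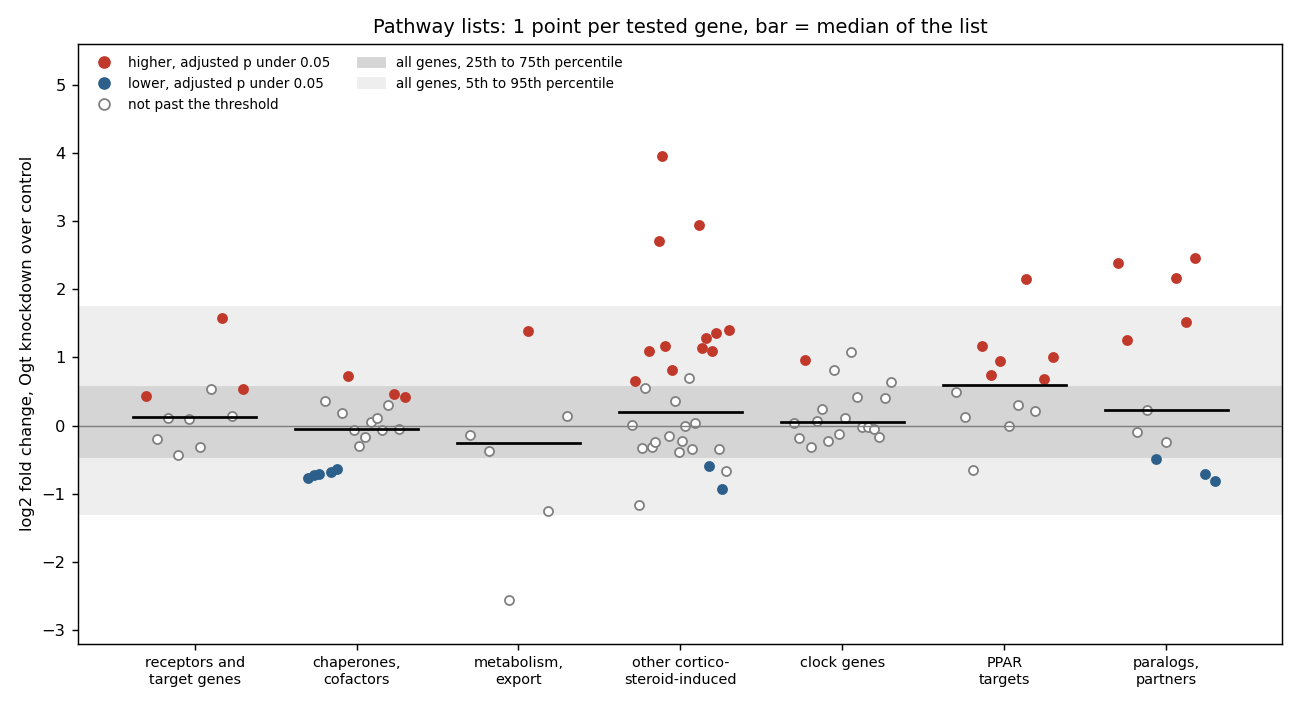
Log2 fold changes (Ogt knockdown over control, y axis) of the tested genes of each list, 1 point per gene, red where called higher and blue where called lower, with the list's median as a bar. Gray bands show the 25th to 75th (-0.46 to 0.56) and 5th to 95th percentile (-1.30 to 1.74) of all 19912 genes. The members' median lies at 0.13, that of the PPAR targets at 0.60.

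Per1 did not pass, and neither did most other clock genes. Of 18 tested, 1 rose and none fell (5.56% called, against 28.5% of all genes, median log2 fold change 0.05). It was Npas2, a partner of the clock activator, at 8.55 ± 1.77 CPM in knockdown libraries and 4.38 ± 1.04 CPM in control libraries (SD, n = 4 each, 1.95-fold, edgeR adjusted p = 0.0132). Control replicate 3 was below all other libraries for 11 of the 18, against 24.7% of all genes. Without both libraries numbered 3 the counts were 7 higher and 3 lower, while 23.5% of all genes then tested were higher and 23.3% lower. Without control replicate 3 alone, or without knockdown replicate 3 alone, 2 rose, while 18.05% and 13.01% of all genes were then called higher.

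Some genes that PPAR receptors induce, like Angptl4, rose. Of 12 listed PPAR receptors and targets, 6 rose and none fell (50% called, against 28.5% of all genes), with a median log2 fold change of 0.60. Control replicate 3 was below all 7 other libraries for 7 of the 12, or 58.3%, against 24.7% of all genes. They were the mitochondrial carrier Ucp2 (2.02-fold), the lipid droplet protein Plin2 (1.94-fold), the fatty acid oxidation genes Acadm (1.61-fold) and Cpt1a (1.68-fold), the fatty acid binding protein Fabp7 (4.46-fold) and Pdk4 (2.25-fold), which is also in the list of corticosteroid-induced genes. The receptors Ppara, Ppard and Pparg did not pass. Fabp7 and the summed astrocyte markers were both higher in every knockdown library than in any control library. Within the knockdown group they went apart. Knockdown replicate 3 had the highest Fabp7 (85.3 CPM, others up to 40.1) and the lowest astrocyte sum (8448.8 CPM, others 10991.6 to 12764.4). The part of those cells was not tested.

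Paralogs of the members moved in both directions, with 5 of 11 called higher and 3 lower (72.7% called, against 28.5% of all genes). Tsc22d4 rose to 847.3 ± 88.3 CPM in knockdown libraries, against 187.9 ± 95.8 CPM in control libraries (SD, n = 4 each, 4.51-fold, edgeR adjusted p = 0.00462), while Tsc22d1 fell 1.40-fold and Tsc22d2 did not pass. Of the kinases related to Sgk1, Sgk3 rose 2.38-fold and Sgk2 5.21-fold from a control mean of 0.416 CPM (log2 fold change 2.38, and 1.74 without knockdown replicate 2). Angptl2 rose 5.48-fold and Ddit4l, the close relative of Ddit4, 2.88-fold. Pgr, the progesterone receptor gene and a relative of Nr3c1, fell 1.64-fold. The Ddit4l call was lost without any knockdown library or without control replicate 4 (adjusted p = 0.0572 to 0.0787), and that of Tsc22d1 without any library but the 2 numbered 3 (0.0544 to 0.0769). That of Pgr was lost without knockdown replicate 2 or control replicate 4 (0.0518 and 0.0507).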

How the data were processed

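The deposited file is a table of raw counts by gene and library. Per the file headers, the authors ran featureCounts 2.0.3 on exons of the GENCODE vM30 annotation. The command has no option for strand, read pairs as units or multi-mapping reads. Per the submitters' processing notes, FastQC, Trimmomatic, STAR and mm10 were used; vM30 describes GRCm39, a conflict left as found, and gene coordinates are the table's. Exon length is the deposited column. No column was left unused.

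Symbols came from GENCODE M21 by gene ID (52073 of 56691 matched). Genes were filtered with filterByExpr (19912 kept), scaled by TMM and tested with edgeR 4.0.16 (glmQLFit robust, glmQLFTest, two-sided; R 4.3.3), with Benjamini-Hochberg adjustment over all genes tested and a threshold of 0.05. The SE is the log2 fold change over the root of F. Alternatives used DESeq2 1.42.0 and limma 3.58.1 (closing section). The test was tried on simulated data. No libraries were duplicates (chi-square per degree of freedom 22.9 to 420).

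Members, lists and tests were chosen with earlier results of these data known. Named are all members, Ogt, up to 4 called genes of smallest p per list, exceptions to counts of 5 or fewer, and 2 nearest profiles for 3 members; any other gene named was chosen after its values were seen. Some genes of the lists are counted but not reported by name here.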

Additional observations from a re-analysis of the deposited data

Results flagged for a closer look

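A value was singled out where, within a group of 4 libraries, the gap of the highest or lowest to its neighbour as a share of the group's range was above Dixon's 95% critical value. Chance does so in about 1 of 20 groups, and 15 values were singled out in 104 groups, 4 of them in knockdown replicate 3 and 9 in control replicate 3.

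Per1 is the member among them, with 72.5 CPM in control replicate 3 against 63.6 to 64.5 CPM in the other control libraries. In the same library Med1 was lowest (27.3 CPM, others 30.3 to 30.5), Ppid highest (165.3 CPM, others 114.5 to 121.6) and Irs2 lowest (71.6 CPM, others 105.1 to 111.4). Some marker sums of control replicate 3 lay apart as well, at 1356.8 CPM for endothelial cells and 657.6 CPM for pericytes and smooth muscle. Oligodendrocyte precursors summed to 588.9 CPM and all neurons to 5360.2 CPM, and Cldn5 was at 150.8 CPM (others 1.93 to 2.88). Of the precursor sum, C1ql1 alone made up 469.5 CPM. Of 8 precursor markers, 3 were above all 7 other libraries there and 2 below (Neu4 and Pdgfra). Of the neuron sum, Snap25 made up 1741.7 CPM (other controls 2897.6 to 3157.7).

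In knockdown replicate 3, Mertk was lowest (12.6 CPM, others 26.9 to 27.2), and Plin2 and Fabp7 were highest (36.2 and 85.3 CPM, others up to 24.3 and 40.1). Dopamine neuron markers summed lowest there (1821.3 CPM, others 2388.8 to 2465.1). Most of that sum was Aldh1a1, at 1323.0 CPM there and 1671.4 to 1951.1 CPM in the other knockdown libraries. The flagged gap thus reflects Aldh1a1 rather than the marker list. Cdkn1a was highest in knockdown replicate 5 (273.5 CPM, others up to 217.9), and Cx3cr1 lowest in control replicate 6 (0.891 CPM, others 1.42 to 1.47).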

How the results depend on the processing

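Fold changes of Hsd11b1 reversed with limma-voom (-0.11), without knockdown replicate 2 (-0.15), without control replicate 3 (-0.18) and without both libraries numbered 3 (-0.11), and that of Sgk1 without knockdown replicate 2 (-0.0061). Leaving out single libraries gave -0.1755 to 0.3642 for Hsd11b1 and -0.0061 to 0.1551 for Sgk1, and neither gene passed in any setting. Over the 8 fits that each left out 1 library, genes called higher numbered 1684 to 3723 (1684 without control replicate 4 and 1736 without control replicate 6) and lower 2140 to 3475, members higher 1 to 3 and lower 0 to 1. In the same fits, higher and lower calls were 1 to 3 and 5 to 5 for chaperones and cofactors, 1 to 2 and 0 to 1 for metabolism and export, 8 to 14 and 1 to 3 for other induced genes, 1 to 2 and 0 to 0 for clock genes, 4 to 6 and 0 to 0 for PPAR targets, and 4 to 5 and 1 to 3 for paralogs. Deviations of libraries of equal number correlated at 0.104, 0.0987 and 0.0422 for numbers 3, 4 and 5. Between knockdown and control libraries of unlike number the correlations ran from -0.103 to 0.0808, below the values for numbers 3 and 4. The labels do not say whether equal numbers belong together, and these small correlations do not settle it. With the replicate number as a replicate block, 480 genes were higher and 778 lower, 1 member (Angptl4) was higher, and calls were 0 and 0 for chaperones and for paralogs, 0 higher for metabolism, 2 and 0 for other induced genes and 2 higher for PPAR targets. With limma-voom, 5251 genes were higher and 4967 lower, 2 members (Tsc22d3 and Per1) were lower, metabolism genes were 2 and 2, 4 other induced genes were lower, and clock genes were 7 and 2. Without both libraries numbered 3, 4805 genes were higher and 4760 lower, 2 members were lower, metabolism genes were 2 and 1, 5 other induced genes were lower and clock genes were 7 and 3. With DESeq2, 1 member (Per1) and 1 metabolism gene were lower and 5 clock genes higher, while 17.5% of all genes were higher and 16.96% lower. Clock genes higher were 4 with upper quartile scaling (15.95% of all genes higher). They were also 4 with a CPM of at least 1 in 4 libraries (17.85% of all genes higher). With no filter on low counts 1 chaperone or cofactor was higher (6.04% of all genes), and Nr3c1 missed the threshold (adjusted p = 0.13). The cause of these shifts was not tested. Upper quartile scaling moved the median of all genes by 0.089 on the log2 scale. All 10 members were tested in every setting.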
